A study of Mus musculus with 2 samples.

Results

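The genes described here are 9 genes of the Wnt and ectodysplasin pathways, measured by single-cell RNA sequencing in newborn mouse epidermis. They were taken by symbol from the gene list of both count matrices, and all 9 were found among the 27998 genes counted: Lgr5, Lgr6, Edar, Eda2r, Lef1, Sp5, Axin2, Nkd1 and Dkk4. Epidermis was taken from 2 male C57BL/6J animals on postnatal day 0, both lacking the M3 muscarinic acetylcholine receptor (Chrm3 KO), and each gave 1 library, called KO mouse 1 and KO mouse 2. Skin had been kept overnight in a separation buffer before the epidermis was lifted from the dermis, filtered and freed of dead cells, so dermal cells are present only as far as they came along. The animals have the same genotype, strain, sex and age. Wild-type libraries are not analysed here, and the values below are levels in KO epidermis with no test of genotype. Chrm3 itself had 13 UMIs (unique molecular identifiers, 1 per captured transcript) in the kept cells of KO mouse 1 and 19 in KO mouse 2, or 0.137 and 0.128 CPM (counts scaled to a fixed total, explained below). A 3′ count cannot show where in Chrm3 the deletion lies, so these low counts check the genotype only weakly.

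In canonical Wnt signalling, a Wnt ligand bound by Frizzled and Lrp receptors stabilises beta-catenin, which then acts with DNA-binding proteins of the Lef/Tcf family to switch on target genes. The ectodysplasin (Eda) receptor works beside this pathway in the placodes, the epithelial thickenings from which hair follicles grow, and Sonic hedgehog (Shh) is made in placodes and later at the tip of the growing follicle. Hair follicles form in successive waves before and around birth, so the epidermis of a newborn mouse holds follicles of different stages beside the interfollicular epidermis (IFE).

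The levels were compared across 23 cell states, which are clusters of cells that passed the filters of 900 to 7700 genes and under 10% mitochondrial UMIs. After filtering, 7607 and 11881 cells remained in the 2 animals, with medians of 10480 and 10577 UMIs per cell. The 9 genes and 69 other genes of the pathways were kept out of the genes used to cluster and to name the cells, although genes that vary with them were not. A state's name means that its cells resemble that type by a list of markers. The follicle states were progenitor 1 (led by Tbx1 and Col14a1), progenitor 2 (led by Ncam1 and Bdnf, with Nfatc1), upper follicle (Krt79), inner root sheath and hair shaft, dividing follicle, and a cluster called Shh-led because Shh was its leading gene while too few other markers rose for a cell type name. The IFE states were basal IFE 1, whose leading genes included the immediate early genes Atf3 and Fos, basal IFE 2 (H19 and Igf2), dividing basal IFE, spinous IFE 1 and 2, and granular IFE. Clusters whose leading genes gave no clear name are called by those genes. The dermal-like state held 38 and 67 cells with medians of 4078.5 and 4330 UMIs. Of its 11 dermal markers, 11 had UMIs in KO mouse 1 and 10 in KO mouse 2, with summed levels of 5413 and 4976 CPM, and Col3a1, a collagen of connective tissue, stood at 694 and 615 CPM. Its endothelial markers summed to 75.4 and 34.0 CPM, with the defining endothelial gene Cdh5 at 0, and its Krt14, the basal keratin, stood at 2322 and 2506 CPM against 883 and 1412 CPM in Langerhans-like cells.

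CPM values are UMIs of a gene divided by all UMIs of a state in 1 mouse and scaled to a total of 1e6, and each gene is compared only with itself across states, because a 3′ UMI count is not scaled to transcript length. Langerhans-like cells (145 and 193 cells, medians of 9639 and 9802 UMIs) are immune cells in which these follicle genes should be low, and they serve as a reference for RNA from other cells. In them Lef1 stood at 10.1 and 11.6 CPM, Lgr6 at 7.59 and 5.11, Lgr5 at 1.90 and 5.58, Axin2 at 5.06 and 1.86, Sp5 at 3.80 and 1.39, Edar at 3.16 and 0.93, and Nkd1 at 1.90 and 3.25. Part of these UMIs lay in cells of high doublet score. With such cells left out, the reference fell to 3.07 and 7.29 CPM for Lef1, 4.6 and 2.24 for Lgr6, 0 and 1.68 for Lgr5, 0.766 and 1.68 for Axin2, 0.766 and 0 for Edar and 2.3 and 1.12 for Nkd1, and Sp5 was at 0 in both mice, its 9 UMIs having come from 3 cells. The reference therefore depended on doublets. Exact 95% intervals given with a level are Poisson intervals and cover counting error only.

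**Figure D1:**
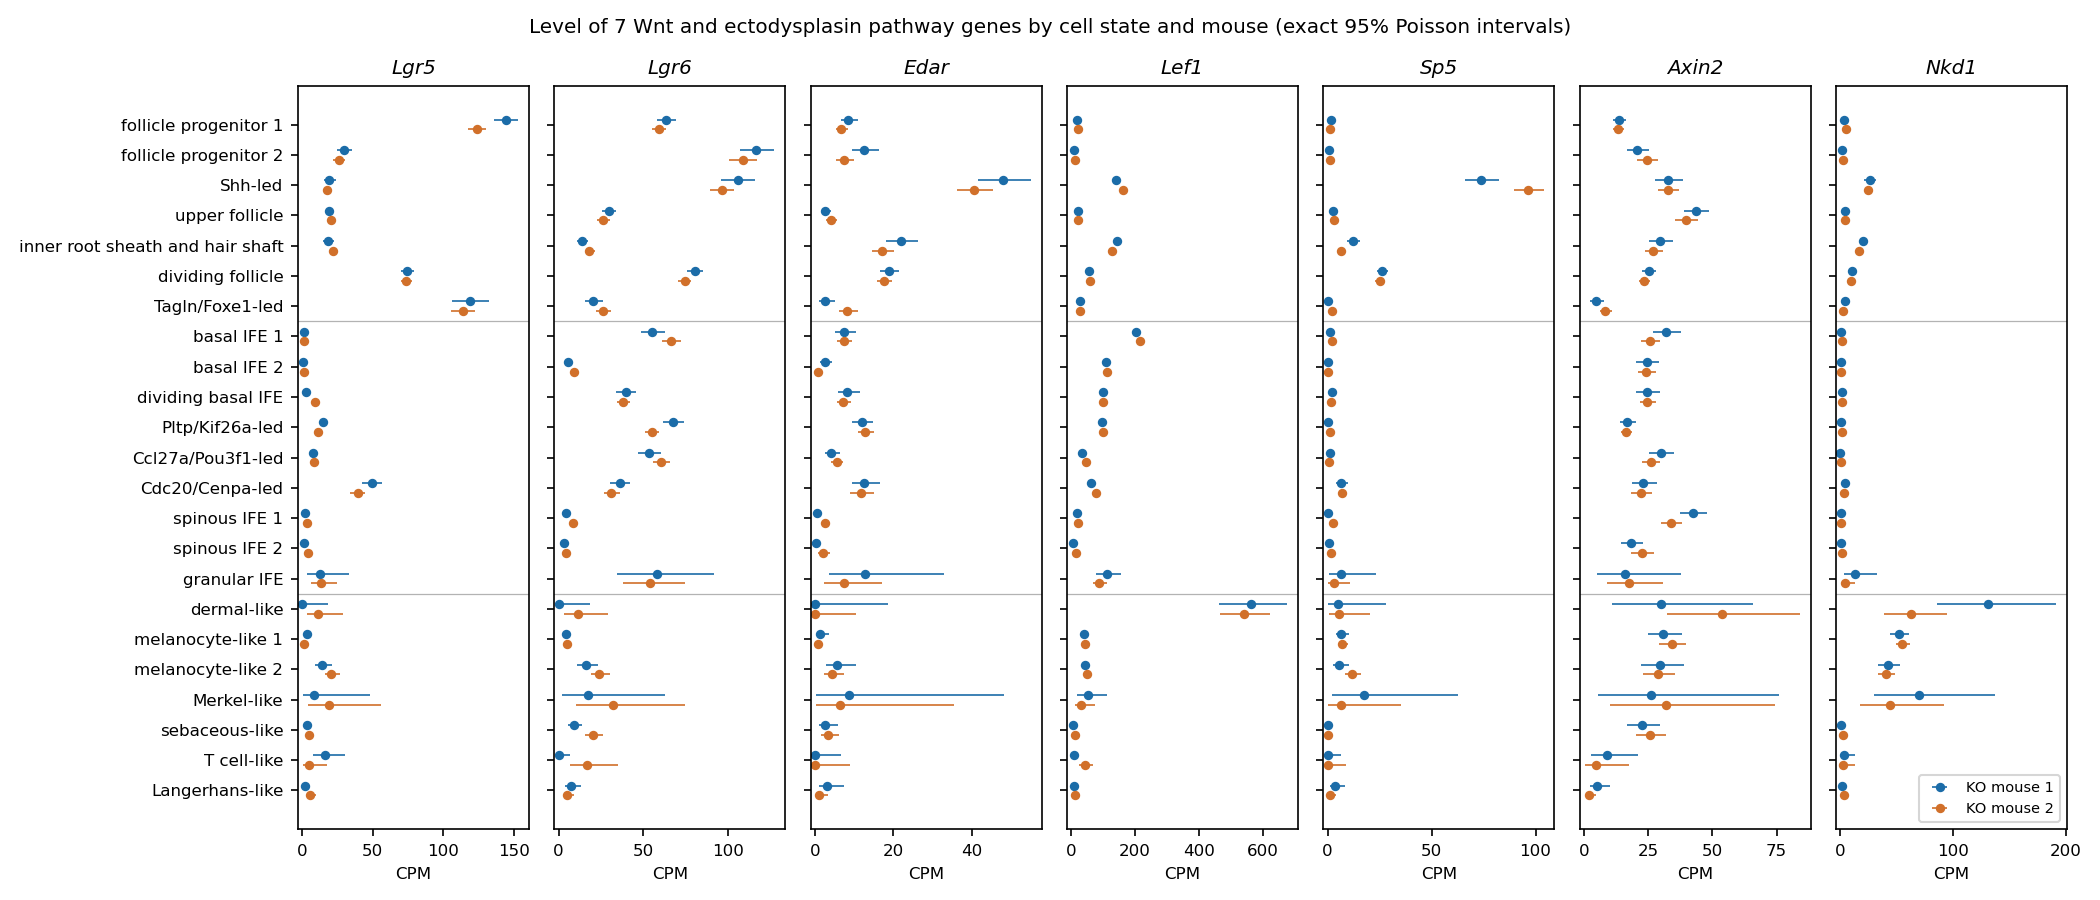
Level of the 7 better detected genes in CPM (horizontal axes, linear, each with its own scale) by cell state, with 1 point per KO mouse and bars for exact 95% Poisson intervals. Lef1 was highest in dermal-like cells (563 and 541 CPM), Lgr5 in follicle progenitor 1 (144 and 124), Lgr6 in follicle progenitor 2 (116 and 108), and Edar and Sp5 in the Shh-led state.

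Among the receptors, Lgr5 was highest in follicle progenitor 1. Lgr5 is a receptor for R-spondins, which strengthen Wnt signals, and marks stem cells of the adult hair follicle; it lies on the minus strand of chromosome 10 of GRCm38 from 115450311 to 115587780. It reached 144 CPM in KO mouse 1 and 124 CPM in KO mouse 2 in follicle progenitor 1, 119 and 114 CPM in the Tagln- and Foxe1-led cluster, and 74.5 and 73.8 CPM in dividing follicle cells. Follicle progenitor 2 stood at 29.5 and 26.0 CPM, the upper follicle at 19.3 and 20.6, and the Shh-led state at 19.2 and 17.8. The first 5 states in the order did not overlap in their mouse values, with means of 134 ± 14.6, 116 ± 3.65, 74.1 ± 0.537, 44.3 ± 7.09 (the Cdc20- and Cenpa-led cluster) and 27.8 ± 2.47 CPM (SD, n = 2). By counting error the first 2 were not apart in KO mouse 2, with overlapping intervals of 118 to 130 CPM (progenitor 1) and 105 to 123 CPM (Tagln- and Foxe1-led). In KO mouse 1 the intervals, 136 to 153 and 107 to 132 CPM, did not overlap. In basal IFE 1 Lgr5 stood at 1.17 and 1.26 CPM and in basal IFE 2 at 0.581 and 1.47, below the higher of the 2 Langerhans-like values with or without doublets.

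Lgr6, the related receptor that marks stem cells of the upper follicle and the IFE in later skin, was spread more widely. It lies on the minus strand of chromosome 1 from 134983301 to 135105276. Its highest levels were in follicle progenitor 2, with 116 and 108 CPM, and in the Shh-led state, with 105 and 96.1 CPM. These 2 states were not apart by counting error. Their intervals overlapped, at 100 to 117 CPM (progenitor 2, KO mouse 2) and 95.9 to 116 CPM (Shh-led, KO mouse 1). Dividing follicle cells had 80.2 and 74.2 CPM, follicle progenitor 1 had 63.2 and 59.0, and basal IFE 1 had 55.2 and 66.4. The 2 basal IFE states did not overlap, since basal IFE 2 had 5.62 and 9.09 CPM, against 7.59 and 5.11 CPM in Langerhans-like cells (4.6 and 2.24 without doublets). Thus by mean CPM Lgr5 was highest in progenitor 1 and Lgr6 in progenitor 2. The upper follicle, at 29.5 and 26.2 CPM, was among the lower follicle states for Lgr6.

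A UMI of Lgr5 was seen in 67.3% and 63.1% of progenitor 1 cells, and in 34.6% (265 of 765) and 30.5% (342 of 1122) once each cell was thinned to 3000 UMIs. In Langerhans-like cells the shares without thinning were 1.38% and 3.63%. For Lgr6 the thinned shares were 25.9% and 24.9% in progenitor 2 (47.9% and 48.7% without thinning), 24.7% in both mice in the Shh-led state, and 12.2% and 18.5% in basal IFE 1. Shares without thinning put the deeper states first, and by them Lgr5 was highest in the Tagln- and Foxe1-led cluster (72.9% and 76.2%, medians of 12904.5 and 14428.5 UMIs) and Lgr6 in dividing follicle cells (64.1% and 63.2%).

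Edar, the receptor for ectodysplasin A1 through which placodes are placed and grow, was highest in the Shh-led state. It lies on the minus strand of chromosome 10 from 58600789 to 58675654. The Shh-led state had 48.0 and 40.6 CPM (44.3 ± 5.27, n = 2), the inner root sheath and hair shaft 21.8 and 17.2, and dividing follicle cells 18.9 and 17.6. The last 2 states did not differ beyond their spread. Progenitor 1 had 8.56 and 6.77 CPM, progenitor 2 had 12.5 and 7.46, basal IFE 1 had 7.49 and 7.43, and the upper follicle had 2.53 and 4.01. The upper follicle values overlapped those of Langerhans-like cells (3.16 and 0.93) but not once doublets were left out, when they were 2.54 and 4.09 against 0.766 and 0. In dermal-like cells no UMI of Edar was counted in either mouse, which allows up to 15.1 CPM in KO mouse 1 and 8.50 CPM in KO mouse 2.

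Eda2r, the receptor for the other ectodysplasin isoform A2, was close to absent. It had 65 UMIs in the kept cells of KO mouse 1 and 60 in those of KO mouse 2. Its level was at most 1.41 CPM in every state of either mouse except dermal-like cells of KO mouse 1, where 2 UMIs made 10.1 CPM (1.22 to 36.3) while KO mouse 2 had 0. It did not pass the filter on low counts and was not tested.

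Lef1 was found at its highest level outside the epithelium. It encodes the DNA-binding partner of beta-catenin that is needed for hair follicles to form, and lies on the plus strand of chromosome 3 from 131110471 to 131224356. Dermal-like cells had 563 CPM in KO mouse 1 (463 to 677) and 541 CPM in KO mouse 2 (467 to 623). Basal IFE 1 followed with 203 and 216 CPM, the Shh-led state with 141 and 162, the inner root sheath and hair shaft with 144 and 128, and basal IFE 2 with 109 and 111. The dermal-like level stood apart from that of basal IFE 1, and basal IFE 1 apart from the Shh-led state, whereas the Shh-led state and the inner root sheath overlapped. Low levels were found in progenitor 1 (18.4 and 22.6 CPM), in the upper follicle (19.7 and 22.5) and in progenitor 2 (8.77 and 12.9). The progenitor 2 values overlapped the 10.1 and 11.6 CPM of Langerhans-like cells. With doublets left out they were 7.42 and 12.8 against 3.07 and 7.29 CPM, where 7.42 lay only narrowly above 7.29. Counting error was not taken for these values without doublets, so they are not shown to stand above the reference.

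In single cells, Lef1 had a UMI in 89.5% and 85.1% of dermal-like cells although these had the lowest median UMIs of the 23 states. After thinning the shares were 75.0% (27 of 36) and 74.6% (47 of 63), against 43.2% and 43.8% in basal IFE 1, 32.7% and 35.9% in the Shh-led state and 4.18% and 5.08% in progenitor 1. Thinning therefore left the order of these 4 states as it was by CPM. Langerhans-like cells had 1.39% and 4.15%.

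Sp5, a zinc finger transcription factor and direct target of beta-catenin in many tissues, was highest in the Shh-led state. It lies on the plus strand of chromosome 2 from 70474923 to 70477729. The Shh-led state had 73.8 CPM in KO mouse 1 and 96.6 CPM in KO mouse 2, and dividing follicle cells had 26.2 and 25.1 CPM. The inner root sheath and hair shaft had 12.3 and 6.35 CPM. Near it were melanocyte 2 (5.73 and 11.7), melanocyte 1 (6.59 and 7.07) and the Cdc20- and Cenpa-led cluster (6.57 and 6.88). Progenitor 1 (1.53 and 1.32 CPM), progenitor 2 (0.461 and 1.16), basal IFE 1 (1.40 and 2.02) and basal IFE 2 (0 and 0.246) lay below the higher of the 2 Langerhans-like values, which doublets carried. Merkel-like cells had 17.4 and 6.36 CPM, from 2 and 1 UMIs. By thinned shares Sp5 was found in 18.1% and 25.1% of Shh-led cells and in 0.523% and 0.535% of progenitor 1 cells. Without thinning these were 41.4% and 45.3% and 1.16% and 1.39%, against 1.38% and 0.518% of Langerhans-like cells.

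The stretches before the start sites of Sp5 and Edar are shown because these 2 genes shared their highest state and because Sp5 is known as a direct target. Both are the 250 bases before the start that RefSeq annotates on GRCm38.p6, 5′ to 3′ along the gene, with each CTTTGA, the core of the sequence bound by Lef/Tcf proteins, in capitals. The Sp5 stretch is chr2:70474673-70474922 on the plus strand and the Edar stretch is chr10:58675697-58675946 on the minus strand.
Sp5: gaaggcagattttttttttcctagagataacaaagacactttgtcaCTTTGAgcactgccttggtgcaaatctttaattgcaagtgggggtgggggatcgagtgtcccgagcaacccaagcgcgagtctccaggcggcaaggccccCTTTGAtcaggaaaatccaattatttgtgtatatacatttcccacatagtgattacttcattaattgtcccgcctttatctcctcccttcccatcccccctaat
Edar: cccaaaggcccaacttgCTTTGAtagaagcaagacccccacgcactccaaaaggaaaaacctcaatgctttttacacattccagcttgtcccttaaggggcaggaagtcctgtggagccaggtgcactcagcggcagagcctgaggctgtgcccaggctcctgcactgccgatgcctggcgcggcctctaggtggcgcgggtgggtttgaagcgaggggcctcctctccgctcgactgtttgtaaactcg

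Windows of 300 bases (250 before a start and 50 after it) were held for 7 of the 9 genes, with 4 windows for Lef1. CTTTGA was searched on both strands. It occurred 2 times for Sp5, beginning 204 and 104 bases before the start, and the second of these was followed by a T, which makes the longer motif CTTTGAT. It occurred 1 time for Edar, 233 bases before the start, also as CTTTGAT. In the farthest downstream of the 4 Lef1 windows it occurred 2 times on the opposite strand, 180 and 120 bases before that start, and it was not found in the windows of Axin2, Lgr6, Eda2r or Nkd1. Of 32851 windows of this length, 16.0% held CTTTGA and 3.73% held CTTTGAT, each on either strand. GGGCGG, the core letters bound by Sp proteins, was found in the windows of Lgr6, Axin2 and Eda2r and in 3 Lef1 windows, against 35.7% of all windows, and TATAAA in that of Eda2r and in 1 Lef1 window, against 13.6%. These matches describe letters in a window and are not measured sites.

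Axin2, a scaffold of the complex that degrades beta-catenin and a commonly used Wnt target, was detected in every state. It lies on the plus strand of chromosome 11 from 108920349 to 108950783. Its highest levels were in dermal-like cells, with 30.2 (11.1 to 65.6) and 53.8 CPM (32.4 to 84.0) from 6 and 19 UMIs, in the upper follicle, with 43.6 and 39.7 CPM, and in spinous IFE 1, with 42.4 and 33.8 CPM. These 3 overlapped, and with cells of high doublet score left out the upper follicle was first. The Shh-led state had 32.8 and 32.6 CPM, basal IFE 1 had 31.8 and 25.7, basal IFE 2 had 24.4 and 24.3, and progenitor 1 had 13.7 and 13.2. The Tagln- and Foxe1-led cluster was low, with 4.64 and 8.26 CPM, where Lgr5 was near its highest.

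The remaining genes are inhibitors. Nkd1, which acts inside the cell on Dishevelled to dampen Wnt signals and is itself induced by them, lies on the plus strand of chromosome 8 from 88521354 to 88594884. It was highest in dermal-like cells, with 131 CPM in KO mouse 1 (85.4 to 191) and 62.3 CPM in KO mouse 2 (39.0 to 94.3), from 26 and 22 UMIs. Melanocyte 1 had 51.7 and 55.2 CPM and melanocyte 2 had 42.4 and 40.8, and Merkel-like cells (17 and 19 cells) had 69.4 and 44.5. The dermal-like and Merkel-like values overlapped. Within the follicle, the Shh-led state had 26.0 and 25.0 CPM and the inner root sheath and hair shaft 20.3 and 16.3, while progenitor 1 had 3.58 and 5.37 CPM, a little above the 1.90 and 3.25 of Langerhans-like cells. Progenitor 2 (1.61 and 2.65 CPM) and both basal IFE states (at most 1.76) lay in or below the range of that reference, whose higher value was 2.3 without doublets.

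Dkk4, a secreted Wnt inhibitor expressed in early placodes, lies on the plus strand of chromosome 8 from 22624043 to 22627547. It was almost undetected, with 4 UMIs in 3 cells of KO mouse 1 and 8 UMIs in 8 cells of KO mouse 2. The Shh-led state held 2 UMIs in each mouse, or 0.469 and 0.262 CPM, and no other state held more than 2. It was not tested. Over all kept cells a count of 0 would have allowed up to 0.0316 and 0.0202 CPM. The 0.0421 CPM measured in KO mouse 1 lies just above its limit, and the 0.0537 CPM in KO mouse 2 lies farther above its own.

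Some of the 9 genes overlap others in GENCODE M21. Lef1 shares exon sequence with the antisense gene Gm43352 and Axin2 with the antisense gene Gm11670, both on the opposite strand and both counted in the files, and Lgr5 overlaps A930009A15Rik on the opposite strand without shared exon sequence. No exon of another gene lies over an exon of the 9 genes on the same strand.

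Differences between states were tested on UMIs summed per mouse and state, with edgeR's quasi-likelihood test across 13983 genes and Benjamini-Hochberg adjustment over all of them. A gene is called at an adjusted p under 0.05. The fit held 44 sums of 22 states, and the Merkel-like state was too small to enter it. Both mice gave every state, and the fit held no term for the mouse. A p-value sets a difference against the spread between sums of the same state, estimated over all 22 states together. The states come from the same 2 animals, so their sums are not independent replicates, and the p-values do not measure the spread among animals. A contrast averages the log2 levels of its states with equal weight, so that its fold can differ from the ratio of mean CPM. Eda2r and Dkk4 did not pass the filter, and 7 of the 9 genes were tested.

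The first comparison was between the follicle outside division (progenitor 1 and 2, Shh-led and upper follicle) and the resting basal IFE (basal IFE 1 and 2, with 1520 and 1190 cells). Clusters without a clear name were left out of both sides. Among them, those led by Pltp and Kif26a (1659 cells) and by Ccl27a and Pou3f1 (1497 cells) were nearest to basal IFE by markers. Lgr5 stood at 14.8 and 11.4 CPM in the first and 7.95 and 8.62 in the second. Lgr6 stood at 67.6 and 54.7 CPM and at 53.3 and 60.5, and Edar at 11.9 and 12.9 and at 4.18 and 5.52. On average over the states compared, Lgr5, Sp5, Nkd1, Lgr6 and Edar were higher in the follicle, and Lef1 was lower. Lgr5 averaged 53.1 and 47.1 CPM over the follicle states against 0.875 and 1.37 CPM in basal IFE, a fitted log2 difference of 4.67 ± 0.24 (SE) with an adjusted p of 1.27e-17 in edgeR's quasi-likelihood test. Lef1 averaged 47.0 and 55.0 CPM against 156 and 164, a log2 difference of -2.54 ± 0.10 with an edgeR adjusted p of 4.26e-20. The groups of mice did not overlap for either gene, but among the follicle states the Shh-led level of Lef1 was above that of basal IFE 2.

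Nkd1 averaged 8.82 and 9.29 CPM in these follicle states against 0.641 and 1.19, a log2 difference of 2.45 ± 0.29. Sp5 averaged 19.5 and 25.5 CPM against 0.702 and 1.13 (2.73 ± 0.51), with most of it in the Shh-led state. Lgr6 averaged 78.7 and 72.4 CPM against 30.4 and 37.7 (1.44 ± 0.14), and Edar 17.9 and 14.7 against 5.0 and 4.15 (1.42 ± 0.25). The highest edgeR adjusted p of these 4 was 4.29e-05. Among the states compared, Edar and Nkd1 too were highest in the Shh-led state, at 48.0 and 40.6 CPM and at 26.0 and 25.0. Edar in progenitor 1 (8.56 and 6.77) and progenitor 2 (12.5 and 7.46) overlapped basal IFE 1 (7.49 and 7.43). In the upper follicle (2.53 and 4.01) it lay below basal IFE 1, and basal IFE 2 had 2.52 and 0.86. Nkd1 in progenitor 2 (1.61 and 2.65) overlapped basal IFE 1 (0.702 and 1.76). Lgr6 in progenitor 1 (63.2 and 59.0) overlapped basal IFE 1 (55.2 and 66.4). In the upper follicle (29.5 and 26.2) Lgr6 lay below basal IFE 1, while basal IFE 2, with 5.62 and 9.09 CPM, lowered the basal mean. For Axin2 the means were 27.7 and 27.5 against 28.1 and 25.0 CPM, and its log2 difference of -0.21 ± 0.09 passed with an edgeR adjusted p of 0.0473 but not with DESeq2 (adjusted p = 0.056), so its direction is not given.

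In all, 7 of the 7 tested genes passed the threshold, 5 of them higher in the follicle and 2 with a negative fitted difference, Lef1 and Axin2. For Axin2 this call was lost with DESeq2, its size factors, no filter, a resolution of 0.5 or the 5% mitochondrial limit, and its mean CPM was not lower. Of all genes tested 47.3% were called, 25.1% higher and 22.2% lower, so a call alone sets these genes little apart. Basal IFE held a higher mitochondrial share (medians of 5.67% to 6.39%) than the progenitors (4.44% to 4.97%), and with cells under 5% only, basal IFE 2 fell to 15 cells in KO mouse 1 and left the fit. Basal IFE 1 itself fell from 528 to 37 cells in KO mouse 1 and from 992 to 194 in KO mouse 2. Against this smaller basal IFE 1 alone, only Lef1 (-3.17) and Lgr5 were still called, Sp5 stood at 0.63 and Lgr6 at -0.08 (adjusted p = 0.92). In another alternative, clusters called by their genes were counted with a lineage. The Tagln- and Foxe1-led cluster was counted as follicle, and the Pltp- and Kif26a-led and the Ccl27a- and Pou3f1-led clusters as basal IFE. The Cdc20- and Cenpa-led cluster stayed out. This brought Lgr6 to 0.48, Edar to 0.72 and Lgr5 to 3.52, all still called. KO mouse 1 alone gave 3.99 for Sp5, but its basal IFE 2 held 0 UMIs of Sp5, so the size of this value is not measured.

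The same question was asked within dividing cells, with the dividing follicle against dividing basal IFE, where cells of both sides were cycling by their markers. Sp5, Lgr5, Nkd1, Edar and Lgr6 were again higher in the follicle, and Lef1 lower. Sp5 stood at 26.2 and 25.1 CPM against 2.24 and 1.80 (log2 difference 3.67 ± 0.35), Lgr5 at 74.5 and 73.8 against 2.91 and 8.80 (3.44 ± 0.23), and Nkd1 at 10.7 and 9.22 against 1.34 and 1.59 (2.67 ± 0.32). Edar had 18.9 and 17.6 CPM against 8.28 and 7.21 (1.23 ± 0.27), and Lgr6 had 80.2 and 74.2 against 39.4 and 38.1 (0.98 ± 0.19). No pair of groups overlapped.

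Lef1 stood at 56.5 and 60.1 CPM in dividing follicle cells against 99.2 and 99.5 in dividing basal IFE, a log2 difference of -0.79 ± 0.16 with an edgeR adjusted p of 0.000398. Axin2, at 25.3 and 23.5 against 24.6 and 24.7 CPM, differed by -0.04 ± 0.13 and was not called (adjusted p = 0.91). Here 6 of the 7 tested genes were called, against 18.4% of all genes (9.68% higher, 8.71% lower). Leaving out doublets raised Lgr5 to 4.42 and Sp5 to 4.29, and KO mouse 1 alone gave 4.61 for Lgr5. Whether the gap between follicle and basal IFE itself differed between dividing and other cells was tested as an interaction. The Lef1 gap was smaller among dividing cells by 1.75 ± 0.19 on the log2 scale (edgeR adjusted p = 7.33e-08), in which 8.88% of all genes were called (3.3% higher, 5.58% lower), and no other of the 7 was called. The Lgr5 difference changed by -1.23 ± 0.41 among dividing cells and missed the threshold (adjusted p = 0.0573). With the mouse as a block it passed (edgeR adjusted p = 0.026), so that 2 of the 7 were called, but the calls over all genes rose too. It also passed with DESeq2, with its size factors, without the filter and at resolutions of 0.5 and 1.2. With doublets left out it stood at -0.24 and was not called.

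**Figure D2:**
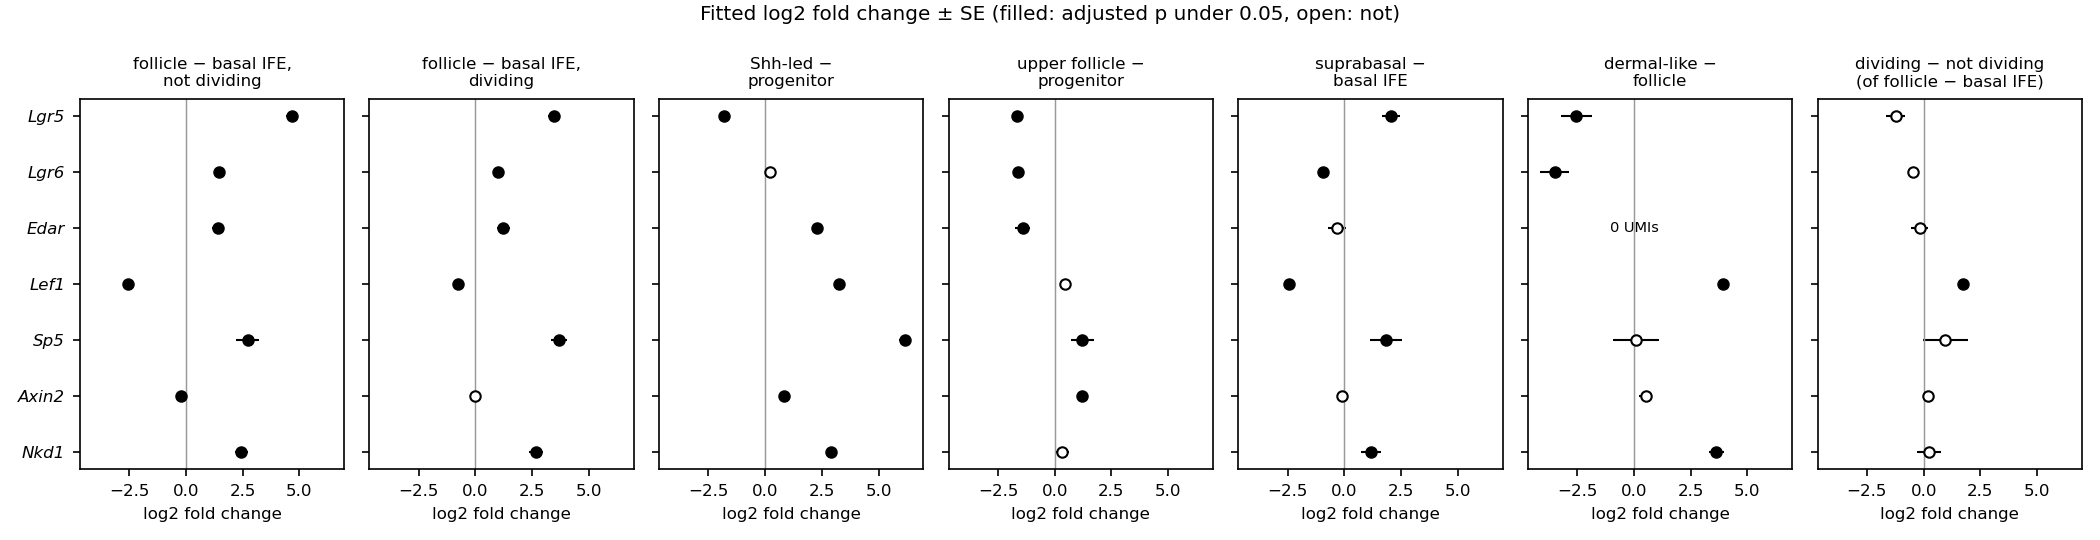
Fitted log2 differences of the 7 tested genes, with bars of 1 standard error, in the 6 comparisons between states and, in the last panel, the interaction. Points are filled where the adjusted p was under 0.05, and Edar in dermal-like cells has no point because no UMI was counted. Sp5 in the Shh-led state (6.17) lies farthest from 0. Outside division, Lef1 was lower in the follicle states compared, without the inner root sheath and hair shaft, than in basal IFE (-2.54). Lef1 was higher in dermal-like cells than in those follicle states (3.91).

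Within the follicle, the Shh-led state differed from the 2 progenitor states in 6 of the 7 genes, against 27.6% of all genes (14.8% higher, 12.9% lower). Sp5, Lef1, Nkd1, Edar and Axin2 were higher and Lgr5 was lower. Sp5 rose from 0.997 and 1.24 CPM over the progenitors to 73.8 and 96.6, a log2 difference of 6.17 ± 0.28 with an edgeR adjusted p of 4.76e-18. Lef1 stood at 141 and 162 CPM against 13.6 and 17.8 (3.25 ± 0.15), and Nkd1 at 26.0 and 25.0 against 2.60 and 4.01 (2.91 ± 0.22). All values of these 3 genes in the Shh-led state were above all those in the progenitors.

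Edar was higher with 48.0 and 40.6 CPM against 10.5 and 7.12 (2.28 ± 0.22), and Axin2 with 32.8 and 32.6 against 17.2 and 18.9 (0.83 ± 0.13). Lgr5 went the other way with 19.2 and 17.8 CPM against 87.0 and 74.9 (-1.80 ± 0.19). Lgr6, with 105 and 96.1 CPM against 89.9 and 83.7, was not called, at 0.20 ± 0.16 (edgeR adjusted p = 0.374). These 6 calls held under every alternative that gave a test, and Lgr5 reached -2.74 at a clustering resolution of 0.5. The progenitor mean joins unlike states. Lgr5 had 144 and 124 CPM in progenitor 1 but 29.5 and 26.0 in progenitor 2, nearer to the Shh-led state. Lgr6 had 63.2 and 59.0 CPM in progenitor 1 and 116 and 108 in progenitor 2, on either side of the Shh-led state. Shh, which leads the state, was among the genes that formed it, and the genes tested were not.

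The upper follicle, the part of the follicle that opens onto the surface, differed from the progenitors in 5 of the 7 genes, against 42.5% of all genes (22.8% higher, 19.7% lower). Axin2 was higher there with 43.6 and 39.7 CPM against 17.2 and 18.9 (log2 difference 1.21 ± 0.12, edgeR adjusted p = 2.08e-10). Both R-spondin receptors and Edar were lower. Lgr5 had 19.3 and 20.6 CPM against 87.0 and 74.9 (-1.64 ± 0.18), Lgr6 had 29.5 and 26.2 against 89.9 and 83.7 (-1.61 ± 0.18), and Edar had 2.53 and 4.01 against 10.5 and 7.12 (-1.41 ± 0.32, and -2.06 in KO mouse 1 alone). By state, Lgr5 in progenitor 2 (29.5 and 26.0 CPM) was nearer to the upper follicle than to progenitor 1 (144 and 124).

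Sp5 was called higher at 2.39 and 2.94 against 0.997 and 1.24 CPM (1.22 ± 0.49, edgeR adjusted p = 0.0429), and the call was lost without the granular state (adjusted p = 0.052) and at a resolution of 0.5 (adjusted p = 0.089). Lef1, with 19.7 and 22.5 against 13.6 and 17.8 CPM, was not called (0.44 ± 0.19, adjusted p = 0.0598). It was called in 5 alternatives, with the mouse as a block (adjusted p = 0.013), with DESeq2 (0.028), without the filter (0.013), at a resolution of 1.2 (0.034) and with doublets left out (0.046). Nkd1 was not called (0.33 ± 0.29). Axin2 and the Lgr genes thus moved in opposite directions between these states.

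From the basal to the suprabasal IFE (spinous 1, spinous 2 and granular), Lef1 and Lgr6 fell on average over the states. Lef1 averaged 46.0 and 40.5 CPM against 156 and 164 in basal IFE, a log2 difference of -2.45 ± 0.13 with an edgeR adjusted p of 9.18e-17. It stood at 18.8 and 20.4 CPM in spinous IFE 1 and 6.45 and 13.5 in spinous IFE 2, but at 113 and 87.6 CPM in granular IFE. Lgr6 likewise had 4.32 and 8.43 and then 2.98 and 4.15 CPM in the spinous states and 58.0 and 54.0 in the granular state, with a log2 difference of -0.93 ± 0.21. The basal states differed in Lgr6, with 55.2 and 66.4 CPM in basal IFE 1 and 5.62 and 9.09 in basal IFE 2. Basal IFE 2 thus overlapped spinous IFE 1, lay above spinous IFE 2 and lay below the granular state.

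The granular state, with 47 and 64 cells, held basal markers summing to 10197 and 11220 CPM and follicle progenitor markers summing to 2050 and 2097 CPM beside its own, and their part in these values was not tested. Without it Lef1 stood at -3.28 and Lgr6 at -2.00. Lgr5 (2.05 ± 0.41), Sp5 (1.84 ± 0.71) and Nkd1 (1.17 ± 0.43) were called higher from low levels, with highest means of 6.87, 2.42 and 4.77 CPM. In the spinous states Lgr5 stood at 1.49 to 4.37 CPM, against 1.90 and 5.58 in Langerhans-like cells (0 and 1.68 without doublets). Sp5 stood there at 0.332 to 2.61, against 3.80 and 1.39 (0 without doublets). In the granular state Sp5 had 2 UMIs in each mouse and Nkd1 had 4 and 3. Without the granular state Nkd1 (0.37) and Sp5 (1.40) were no longer called, and Edar, not called with it, was called lower (-1.10, edgeR adjusted p = 0.033). The Lgr5 call was lost when the Pltp- and Kif26a-led and the Ccl27a- and Pou3f1-led clusters were counted as basal IFE (0.55). KO mouse 1 alone gave 2.51 for Sp5, a size that is not measured either, with 0 UMIs in its basal IFE 2. Axin2 was not called, at 25.6 and 24.6 against 28.1 and 25.0 CPM. In all 5 of the 7 genes were called, against 40.7% of all genes (20.3% higher, 20.4% lower).

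Dermal-like cells were compared with the 4 non-dividing follicle states. Against the average of those states, Lef1 and Nkd1 were higher in the dermal-like cells, and Lgr6, Lgr5 and Edar were lower. Lef1 stood at 563 and 541 CPM against 47.0 and 55.0, a log2 difference of 3.91 ± 0.18 (edgeR adjusted p = 1.15e-18), and Nkd1 at 131 and 62.3 against 8.82 and 9.29, a difference of 3.63 ± 0.33 (6.84e-11 adjusted in the edgeR fit). For Nkd1, KO mouse 2 alone gave 3.02 and KO mouse 1 alone 4.34. Keratinocyte markers were found in the dermal-like cells too, with 11 of 11 basal IFE markers summing to 6147 and 6729 CPM and follicle progenitor markers to 1437 and 1334 CPM (9 and 10 of 10), and their part in these values was not tested.

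Lgr6 and Lgr5 had no UMI in the dermal-like cells of KO mouse 1 and 4 UMIs each, or 11.3 CPM, in those of KO mouse 2. Their follicle means were 78.7 and 72.4 CPM for Lgr6 and 53.1 and 47.1 for Lgr5, with fitted log2 differences of -3.50 ± 0.64 and -2.55 ± 0.69 (edgeR adjusted p of 5.75e-05 and 0.00501), and KO mouse 2 alone gave -2.79 and -1.84. With doublets left out Lgr6 stood at -5.25. The intervals of both genes in dermal-like cells of KO mouse 2 were 3.09 to 29.0 CPM. For Lgr5 this range held the Shh-led state (17.8), the upper follicle (20.6) and progenitor 2 (26.0), with progenitor 1 (124) above it. For Lgr6 it held the upper follicle (26.2). Edar had no UMI in either mouse. Against the limit that 3 counts over both mice set, 5.43 CPM, its follicle mean of 16.3 CPM makes the dermal-like level at least 3.00-fold lower than that mean (edgeR adjusted p = 0.0364, but 0.060 with doublets left out). The Shh-led state (48.0 and 40.6 CPM) raised the mean, and the upper follicle (2.53 and 4.01) lay below 5.43 CPM. Progenitor 1 (8.56 and 6.77) and progenitor 2 (12.5 and 7.46) lay below the limits of each mouse alone, 15.1 and 8.50 CPM. Axin2, at 30.2 and 53.8 against 27.7 and 27.5 CPM, was not called (0.51 ± 0.28). It was called when the Tagln- and Foxe1-led cluster was counted as follicle (0.89, edgeR adjusted p = 0.025). Sp5, at 1 and 2 UMIs, was not called, and its fitted 0.08 ± 1.01 averages log levels, whereas its mean CPM was lower than in the follicle, where the Shh-led state carried it.

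In this comparison 5 of the 7 genes were called, against 24.4% of all genes (12.1% higher, 12.3% lower). The scaling mattered here. The median log2 difference of all genes was -0.19, and with DESeq2's size factors it was -0.01 and the calls moved from 1689 higher and 1724 lower to 2053 and 1178. The log2 differences of Lef1 and Nkd1 lie far above that shift, and the Edar call was lost with those factors (adjusted p = 0.053). The dermal-like sums were small, and the test recovered 19% of genes changed by 1 on the log2 scale in a simulation of this comparison over 13134 genes, against 82.0% over 13129 genes for the follicle against basal IFE. The simulation gave each gene the same level in all states and all genes the same spread. It changed only the dermal-like state here but all the follicle states in the other comparison, so the gap cannot be put down to the small sums alone.

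Whether the genes were found in the same cells was described with each cell thinned to 3000 UMIs, with no test, since cells of 1 mouse are not replicates. In the Shh-led state, Sp5 was found in 29.0% and 36.3% of cells with a Shh UMI and in 11.9% and 18.3% of cells without one. Lef1 showed a smaller gap, with 36.6% and 41.0% against 30.6% and 32.7%. Edar and Lgr6 showed hardly any, with Edar at 12.4% and 11.7% against 12.3% and 10.2%, and Lgr6 at 25.5% and 23.1% against 24.2% and 25.7%.

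Dividing follicle cells split further along Shh. Of the 76 and 96 cells with a Shh UMI, 34.2% and 34.4% held Sp5, against 3.11% and 3.09% of the 740 and 1003 without. Lef1 was found in 32.9% and 30.2% against 10.8% and 13.7%. Lgr5 and Sp5 were seldom found together there, since Sp5 was in 0.671% and 2.40% of cells with an Lgr5 UMI (1 of 149 and 5 of 208) and in 7.20% and 6.62% of the others. In progenitor 1, Lgr6 was found in 19.2% and 17.0% of cells with Lgr5 and in 13.6% and 15.8% of cells without it. Clustering placed the cells by other genes, so that a state may hold cells of more than 1 kind.

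**Figure D3:**
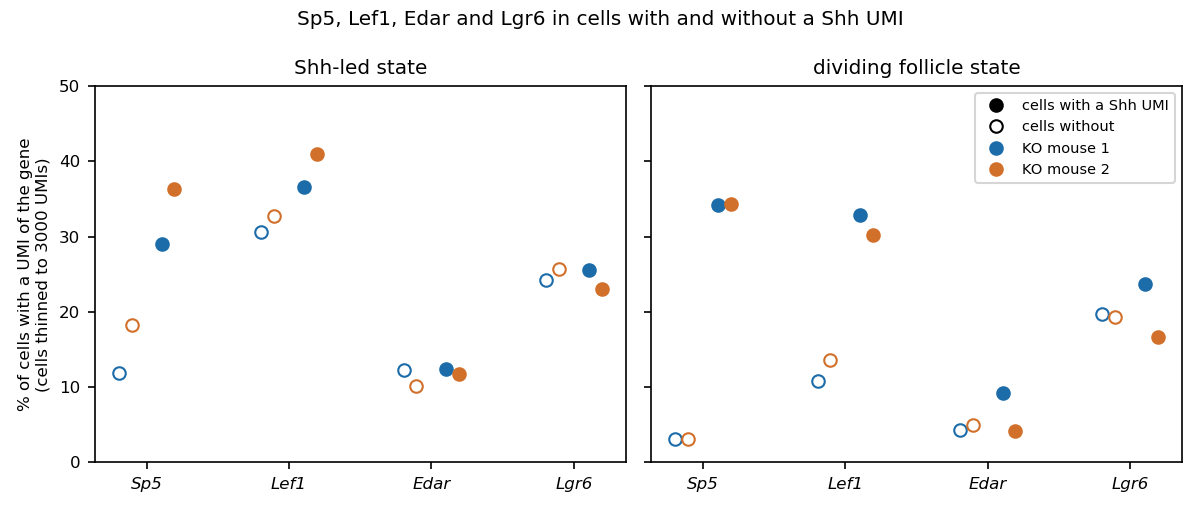
Percent of cells with a UMI of Sp5, Lef1, Edar or Lgr6 among cells with a Shh UMI (filled) and without (open), each cell thinned to 3000 UMIs, with 1 point per KO mouse. In dividing follicle cells Sp5 was found in 34.2% and 34.4% of cells with Shh and in 3.11% and 3.09% of cells without.

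The other genes of the 2 pathways were followed as a list of 69, of which 64 passed the filter, sorted by role. The list was chosen with earlier results of these data known, so the shares called in it are a description and no independent test. Between the non-dividing follicle and basal IFE, 25 were higher in the follicle, 23 were lower and 16 were not called, so that 75% were called against 47.3% of all genes, and their median log2 difference was 0.09 against 0.03 over all genes. The ligands and agonists leaned to the basal IFE, with 10 of 15 lower in the follicle and 1 higher, under every scaling tried. Wnt3a had 1.46 and 1.43 CPM against 18.2 and 19.8 (log2 difference -4.22 ± 0.20), Wnt16 had 25.8 and 22.2 against 222 and 147 (-3.48 ± 0.14), and Wnt7a had 1.85 and 3.29 against 7.78 and 9.18 (-3.27 ± 0.29). Wnt5a, which mostly signals without beta-catenin, was the ligand that was higher, with 4.38 and 3.80 against 0.214 and 0.310 CPM (3.43 ± 0.41).

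Of the 17 receptors and adaptors 8 were higher and 5 lower. Of the 13 tested inhibitors 7 were higher and 3 lower in the follicle. Wif1, which binds Wnt proteins outside the cell, had 6.62 and 9.27 CPM against 0.117 and 0.187 (3.95 ± 0.65), and Sfrp2, a secreted Frizzled-related protein, had 6.54 and 4.91 against 0.117 and 0.25 (3.38 ± 0.62). Of the 11 nuclear effectors 7 were higher and 1 was lower. The targets split into 2 higher and 4 lower. With cells under 5% mitochondrial UMIs, 10 ligands were lower, while 4 receptors were higher and 4 lower, 3 inhibitors were higher and 1 lower, 4 nuclear effectors were higher and 0 lower, and 2 targets were higher and 2 lower.

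Among dividing cells 21 of the 64 were higher in the follicle and 14 lower, or 54.7% called against 18.4% of all genes, with a median of 0.24 against 0.02. Again 7 ligands were lower and 1 higher, and 6 nuclear effectors were higher and 0 lower. Wif1 had 13.8 and 11.3 CPM against 0.672 and 0.424 (4.54 ± 0.49), Sfrp2 had 8.57 and 5.50 against 0.224 and 0.424 (4.17 ± 0.56), and the signalling protein Bmp4 had 30 and 29.4 against 1.57 and 2.23 (3.85 ± 0.29). Wnt3a (-2.58 ± 0.31), Wnt16 (-2.30 ± 0.23) and Wnt7b (-1.89 ± 0.16), the last at 25.1 and 28.6 against 98.1 and 98.8 CPM, were the lowest in the follicle.

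In dermal-like cells against the follicle, 16 of the 64 were higher and 12 lower, or 43.8% against 24.4% of all genes, with a median of -0.05 against -0.19. Of the 15 ligands and agonists 4 were higher and 0 lower (3 and 0 with DESeq2, 4 and 2 with doublets left out), and the R-spondins, ligands of Lgr5 and Lgr6, led them. Rspo3 had 1639 and 1595 CPM, with 4 UMIs in all the follicle cells compared, and Rspo1 had 1317 and 1003 CPM, with 16. Rspo2 had 65.3 and 87.8 CPM, from 44 UMIs, and 1 UMI in the follicle. Fzd6 had 1 UMI in dermal-like cells against 19.9 and 19.5 CPM in the follicle, Sostdc1, a secreted inhibitor, had 80.4 and 73.6 against 499 and 466 CPM (-2.56 ± 0.35), and Fzd7 had 10.1 and 11.3 against 41.6 and 40.5 (-2.14 ± 0.42). Inhibitors were 6 higher and 4 lower (6 and 1 with DESeq2). The balance of the receptors depended on the scaling, with 3 higher and 4 lower in the edgeR fit, 3 and 3 with DESeq2's size factors and 5 and 2 with DESeq2.

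**Figure D4:**
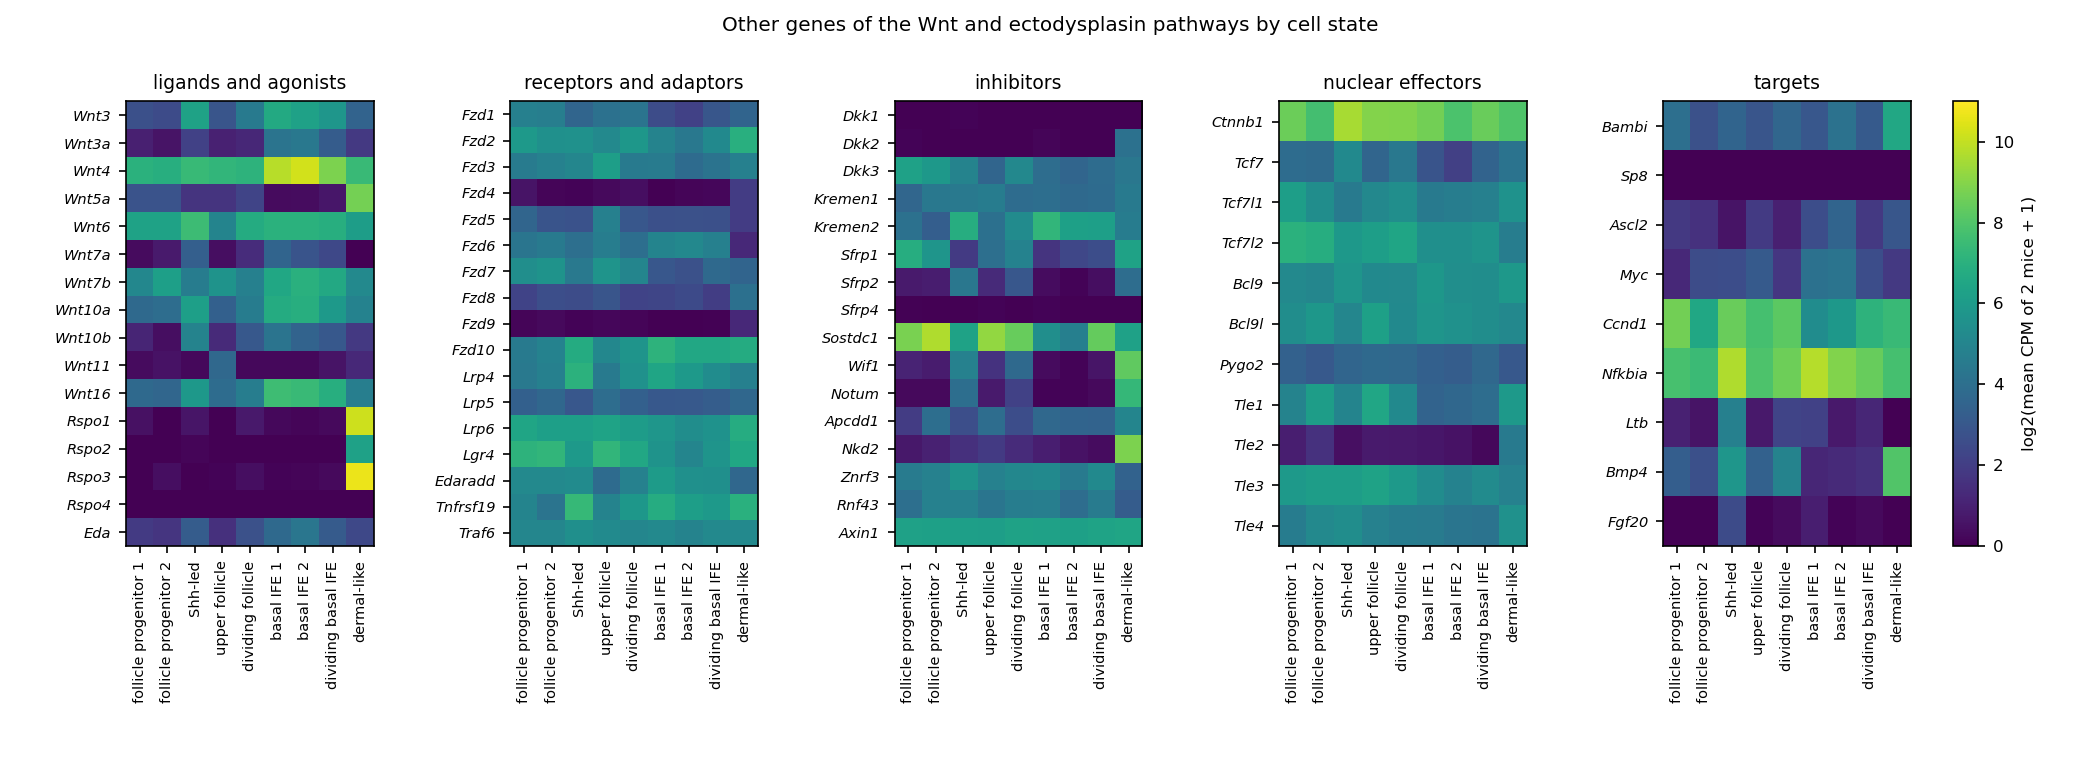
Level of the 69 other pathway genes in 9 states, by role, as log2 of the mean CPM of both mice plus 1 (colour scale, from dark for 0 to yellow). Several Wnt ligands such as Wnt16 and Wnt3a are brighter in the basal IFE columns than in most follicle columns, and Rspo1, Rspo2 and Rspo3 are bright in dermal-like cells alone among the states drawn.

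Of the 11884 genes that reached 10 CPM in a state, those whose mean log level over the 23 states was most like that of each gene are given as a description, in which the points share libraries and depth. Lef1 was most like Tnfrsf19 (Pearson's r = 0.923), a receptor that Wnt signals can induce, then Prrg1 and the cell cycle inhibitor gene Cdkn1c. Lgr5 was most like Tbx1 (0.921), a transcription factor gene that also led progenitor 1, then Slc16a7 and Lhx2. Lgr6 was most like Atp6v1b1 (0.897), Pdgfa and Nedd9, and Edar most like Exog (0.932), Igsf9 and Lrrc40. Sp5 was most like 3632451O06Rik (0.869), Sfrp2 and Cnr1, and Nkd1 most like Trak2 (0.891), Rufy2 and Fmnl2. Axin2 had the least close relatives, with Adprhl2 at 0.797, then Arhgef12 and Maoa.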

How the data were processed

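The authors aligned the reads of 2 libraries of epidermal cells (10x Chromium 3′) to mm10, and the deposited values are raw UMI counts for each gene in each barcode. Per the submitters' processing notes the aligner was Cell Ranger 3.0.2. The labels name version 1 of the chemistry, and the methods name another. The 9 genes and all lists were chosen with earlier results of these data known.

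The deposited matrices held 10816 and 15867 barcodes. Kept cells had 900 to 7700 genes and a mitochondrial share under 10% (95048258 and 148843409 UMIs, medians of 3070 and 3058 genes). The libraries shared 34 barcodes among kept cells. Counts were log-normalized, integrated over 30 dimensions from 2000 variable genes and clustered at resolution 0.8 (Seurat 5.3.0, R 4.3.3). Most named clusters took their name from markers among their 10 leading genes, with at least 3 enriched markers. Progenitor 1 and 2 had 1 such leading marker and basal IFE 1 had 0, and they took the list with the highest mean enrichment (9 of 11 markers enriched for basal IFE 1). These details were settled after the clusters had been seen. Doublets were scored with Scrublet (scanpy 1.11.5) and kept. Scores over 0.25 marked 1.89% and 3.03% of cells.

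UMIs were summed per mouse and state (at least 20 cells) and tested in 1 fit of edgeR 4.0.16 (TMM, filterByExpr, quasi-likelihood F-test, 22 residual degrees of freedom, biological coefficient of variation 0.0916). The fit was tested on simulated data with 200 changed genes. Alternatives were DESeq2 1.42.0, its size factors in edgeR, the mouse as a block, no filter, other resolutions, a 5% mitochondrial limit, 1 mouse alone and, added after seeing the data, doublets, shared barcodes or the granular state left out, and clusters called by their genes counted with a lineage. All sums with 1 number are of 1 animal and are thus paired. Across genes, the mouse 2 minus mouse 1 deviations of 2 states correlated with r from -0.01 to 0.39 (median 0.11 over 231 pairs). All 9 genes, and of the pathway list the 3 called genes with the largest change each way, were named. For likeness, Pearson's r was taken over states on log2(CPM + 1). Cells were thinned to 3000 UMIs for shares, which left out 305 shallower cells. A count of 0 allows 3 counts of the total. Sequences are from RefSeq (GRCm38.p6) and positions from GENCODE M21. Figures were drawn with matplotlib 3.10.9.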

Additional observations from a re-analysis of the deposited data

Results flagged for a closer look

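The gap in Lef1 between follicle and basal IFE differed between dividing and other cells by 1.75 ± 0.19 on the log2 scale (edgeR adjusted p = 7.33e-08). Outside division Lef1 averaged 47.0 and 55.0 CPM in the follicle against 156 and 164 in basal IFE, a log2 difference of -2.54, and in dividing cells 56.5 and 60.1 against 99.2 and 99.5, a difference of -0.79. Over the alternatives the value ran from 1.06, with the clusters called by their genes counted, to 2.19, and its highest adjusted p was 0.00023. The dividing follicle state was not matched to the 4 other follicle states in its makeup, and among these the Lef1 level ran from 8.77 CPM in progenitor 2 to 162 CPM in the Shh-led state.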

How the results depend on the processing

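Over 7 tests of 7 genes, 11 alternatives gave a test. Of 385 values whose result was called, 364 were called again with the same sign, 18 lost the call with the same sign, and 3 lost it and changed sign. Of 154 values whose result was not called, 15 gained a call and 14 changed sign without one. In 1 mouse alone, 4 of 98 values changed sign, all of results that were not called. Of these values 30 moved by more than the standard error of the fit to both mice. The 5% mitochondrial limit, which removed basal IFE 2, lowered the called genes from 7 to 2 for the follicle against basal IFE and from 5 to 2 for suprabasal against basal IFE, and turned Lgr6 in the first (-0.0808) and Nkd1 (-0.1167) and Sp5 (-0.151) in the second. Under it the calls over all genes fell to 1871 from 6609 and to 1357 from 2571 (follicle against basal IFE, outside division and dividing), to 2527 from 3861 (Shh-led against progenitors), to 2789 from 5698 (suprabasal against basal IFE) and to 158 from 1242 (interaction). The interaction called 1 of the 7 genes, 2 with DESeq2, with its size factors, with the mouse as replicate block and at resolutions of 0.5 and 1.2, and 3 without the filter. Its calls over all genes rose to 2206 with the replicate block and fell to 554 with clusters called by their genes counted with a lineage. The replicate block lost no call and added those of Lef1 in the upper follicle and Lgr5 in the interaction. By shares of cells without thinning, 5 of the 9 genes kept the state in which they were highest by CPM. The cause of these changes was not tested. Scrublet's own limit marked 2 cells of KO mouse 1, so the planned removal by it was not run. With 1 library a state left, 1 mouse alone gives a value and no test. Few UMIs limit the dermal-like sums.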
